A study of Mus musculus with 8 samples.

Results

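Genes that mark the sinusoidal endothelium and the stellate cells of the liver were examined for m6A, the methylation of adenosine in mRNA, in livers whose hepatocytes had lost *Wtap*. The list held 40 genes, 27 of endothelial cells and 13 of stellate cells. Their peaks were those deposited under the gene's symbol. The genes were chosen as markers of these cells and not by a measured value, although earlier results of these data were known. A peak in at least 1 genotype was found for 33 of the 40 genes, out of 11558 genes with a peak. The gene *Wtap* lies outside the list.

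m6ARIP-seq enriches methylated mRNA fragments with an antibody (IP) and reads them beside unselected fragments (input). Livers of *Wtap* flox/flox mice, in which the gene is floxed but intact, were compared with livers of *Wtap*-HKO mice, which are *Wtap* flox/flox mice that also carry *Alb*-Cre. All mice were C57BL/6 mice by the labels (C57BL/6J in the study's methods) on normal chow at 8 weeks of age, and both genotypes carry the floxed allele. The *Alb* promoter drives Cre in hepatocytes, so *Wtap* in endothelial and stellate cells was not targeted. The 8 libraries were 2 IP and 2 input libraries per genotype, and each replicate pooled RNA of several mice. Whole liver was used, so every endothelial or stellate transcript was measured in a mixture that hepatocytes dominate.

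WTAP is a scaffold of the nuclear m6A writer complex and keeps the METTL3 and METTL14 catalytic pair in nuclear speckles. m6A is commonly found in a GGAC core and is dense around stop codons and in 3´ untranslated regions. Sinusoidal endothelial cells form a fenestrated barrier between blood and hepatocytes, clear circulating macromolecules through scavenger receptors and send Wnt and BMP signals to hepatocytes. Stellate cells lie beneath them, store retinoids and turn into matrix-producing cells in injured liver.

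The deposited lists combine the replicates of a genotype. Every fold enrichment (IP over input) is therefore a single value without an SD, and no replicate spread was at hand for any difference. Read numbers are not part of the lists, so the depth is unknown. *Wtap* itself had 3 peaks in each genotype, enriched 8.06, 20.7 and 8.78 times in *Wtap* flox/flox livers and 4.47, 20.5 and 20.6 times in *Wtap*-HKO livers. The peaks of *Wtap* are not a readout of the deletion, because RNA levels are not part of the lists.

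The defining markers of each cell type, all of them members of the list, were looked up for peaks. A peak in whole liver does not show which cell type a transcript came from, so the labels themselves were not tested. Of 6 markers of sinusoidal endothelium, *Pecam1*, *Lyve1*, *Clec4g* and *Kdr* had peaks in both genotypes. The scavenger receptors *Stab1* and *Stab2* had no peak in the lists used here. Of 6 markers of stellate cells, *Lrat*, *Des*, *Pdgfrb* and *Ecm1* had peaks in both genotypes, *Hgf* had peaks in *Wtap*-HKO livers only, and *Reln* had none in the lists used here. A missing peak can mean no methylation or too little RNA, and these cannot be told apart here.

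Every member with an m6A peak in *Wtap* flox/flox livers also had one in *Wtap*-HKO livers. This was also so for most genes, 8096 of the 9020 with a *Wtap* flox/flox peak. Of the 33 members with a peak, 28 had one in *Wtap* flox/flox livers and all 33 had one in *Wtap*-HKO livers. Over the 11558 genes, 78% had one in *Wtap* flox/flox livers and 92% had one in *Wtap*-HKO livers. No member had a peak in *Wtap* flox/flox livers alone, against 924 of the 11558 genes. The same held for markers of Kupffer cells and leukocytes and of cholangiocytes, while 2 hepatocyte markers had peaks in *Wtap* flox/flox livers alone. Peaks in *Wtap*-HKO livers only were found for 5 of the 33 members, against 2538 of the 11558 genes. These 5 members were *Emcn*, *Vwf*, *Vim*, *Tagln* and *Hgf*. The other members without a peak in the lists used here, beside *Stab1*, *Stab2* and *Reln*, were *Tie1*, *Egfl7*, *Hhip* and *Acta2*.

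Every *Wtap* flox/flox peak of the members overlapped a *Wtap*-HKO peak by at least 1 exonic base on the same strand. This held for 52 of 52 peaks (100%, 95% Wilson interval 93.1 to 100%), and the background over all genes was 80.1% of 15635 peaks. It also held for markers of Kupffer cells and leukocytes (14 of 14 peaks) and of cholangiocytes (4 of 4). For hepatocyte markers it held for 20 of 25 peaks (80.0%). In the other direction, 45 of the 79 *Wtap*-HKO peaks of the members were shared (57.0%, 46.0 to 67.3%), and 34 had no overlapping *Wtap* flox/flox peak. The background for this share was 64.7% of 19185 peaks. When 50% of the exonic bases of a peak had to be shared, 27 of the 79 were shared (34.2%). No share over all genes was at hand for this limit, and the 64.7% does not apply to it. A *Wtap*-HKO peak that is longer than its counterpart meets this limit less easily. Members with a peak carried 1.86 peaks each in *Wtap* flox/flox livers and 2.39 in *Wtap*-HKO livers, against 1.73 and 1.80 over all genes. The intervals cover counting error only, and peaks of the same gene are not independent. Endothelial members went from 40 to 55 peaks and stellate members from 12 to 24, in 21 and 23 endothelial genes and in 7 and 10 stellate genes.

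**Figure D1:**
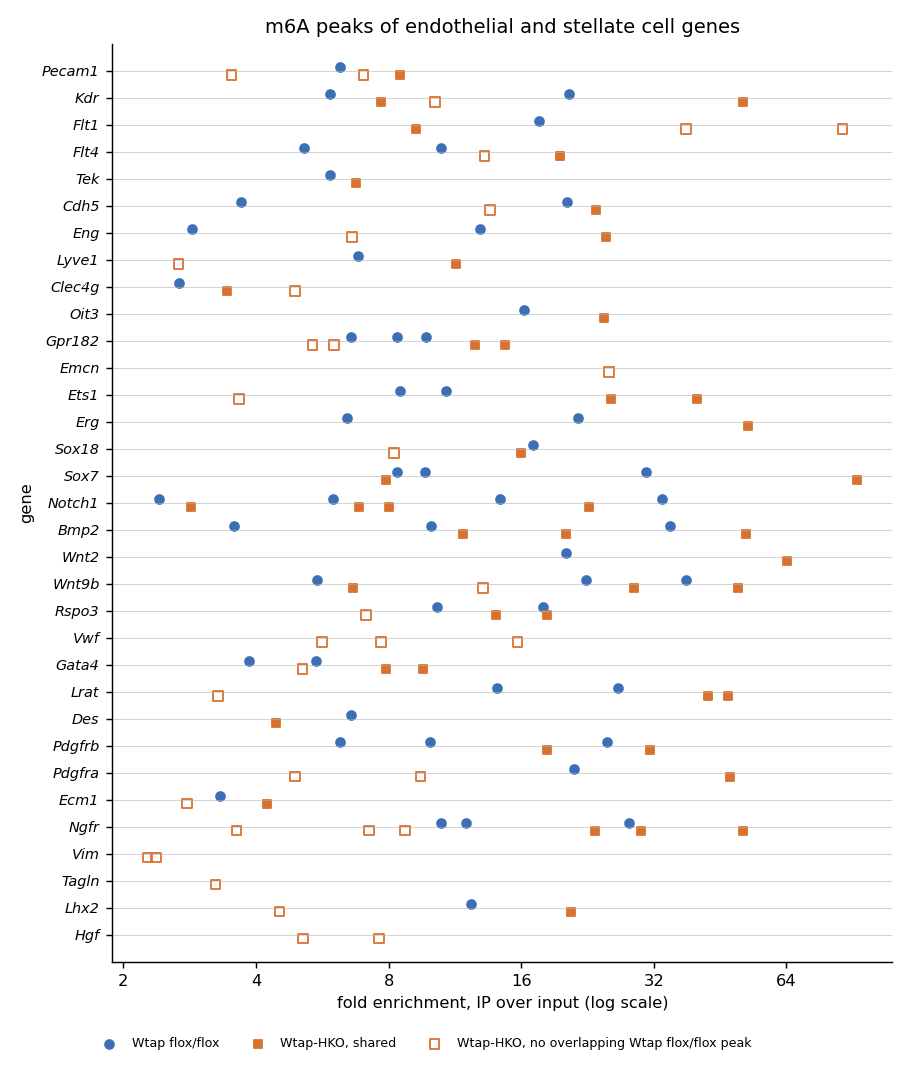
Fold enrichment (IP over input, log scale) of each m6A peak of the 33 members with a peak, by gene. Circles are the 52 *Wtap* flox/flox peaks, filled squares the 45 shared *Wtap*-HKO peaks and open squares the 34 *Wtap*-HKO peaks without an overlapping *Wtap* flox/flox peak; each symbol is 1 combined value, and every gene with a circle also has a filled square.

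Shared peaks were mostly more enriched in *Wtap*-HKO livers. The comparison used peaks that overlapped 1 to 1, of which the members had 38 in 24 genes. The fold enrichment was higher in *Wtap*-HKO livers for 32 of the 38 pairs (84.2%, 69.6 to 92.6%), and the background was 50.4% of 10499 pairs. The median log2 ratio of *Wtap*-HKO over *Wtap* flox/flox was 0.64 (interquartile range 0.25 to 1.12), against 0.01 (-0.58 to 0.66) over all genes. The ratio exceeded 1 on the log2 scale for 12 member pairs (31.6%, all genes 14.9%) and was below -1 for 1 pair (2.63%, all genes 12.4%). The median was 0.51 for the 28 endothelial pairs, of which 23 were higher, and 0.82 for the 10 stellate pairs, of which 9 were higher. The difference between the 2 cell types was not tested.

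The shared peaks were also longer and called with lower false discovery rates. The median length of the paired member peaks was 226 exonic nt in *Wtap* flox/flox livers and 450 in *Wtap*-HKO livers, and 35 of 38 were longer in the latter. Over all genes the paired peaks measured 299 and 300 nt, and 45.9% were longer. The median log10 false discovery rate of the member pairs was -22.85 in *Wtap* flox/flox livers and -98.7 in *Wtap*-HKO livers. It was lower in *Wtap*-HKO livers for 37 of 38 pairs, and the remaining pair, in *Kdr*, was at minus infinity in both genotypes. Over all genes it was lower in 57.9% of pairs, with medians of -28.5 and -38.9. In whole liver, a shift in the number of endothelial or stellate cells and a shift in the RNA per cell cannot be told apart, and either would change the reads behind a peak. The part of read number in the enrichment, the length and the number of the member peaks was not tested.

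**Figure D2:**
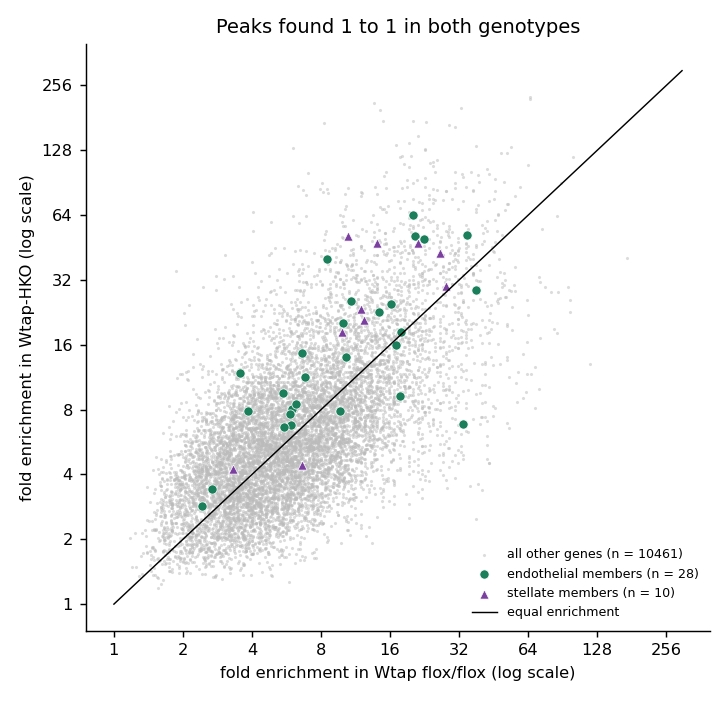
Fold enrichment (IP over input, log scales) of peaks that overlapped 1 to 1, *Wtap* flox/flox on the x axis and *Wtap*-HKO on the y axis. Grey points are the other genes, circles the 28 endothelial and triangles the 10 stellate member pairs; 32 of the 38 member pairs lie above the line of equal enrichment.

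All peaks of a gene were then combined. Of the 28 members with peaks in both genotypes, 25 had a higher maximum fold enrichment in *Wtap*-HKO livers (89.3%, all genes 54.7%), with a median log2 ratio of 0.75 (all genes 0.11). The exceptions were *Sox18* (17.0 in *Wtap* flox/flox livers and 16.0 in *Wtap*-HKO livers), *Notch1* (33.4 and 22.8) and *Des* (6.59 and 4.43). The exonic sequence covered by peaks was longer in *Wtap*-HKO livers for 28 of the 28 members, with a median of 526.5 nt in *Wtap* flox/flox livers and 1216.5 nt in *Wtap*-HKO livers. Over 8096 genes, 51.7% were longer, with medians of 477 and 510 nt. *Wtap*-HKO livers had more peaks in 16 members, the same number in 9 and fewer in 3. Over all genes, 27.1% had more and 16.0% had fewer peaks, against 57.1% and 10.7% of these members.

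**Figure D3:**
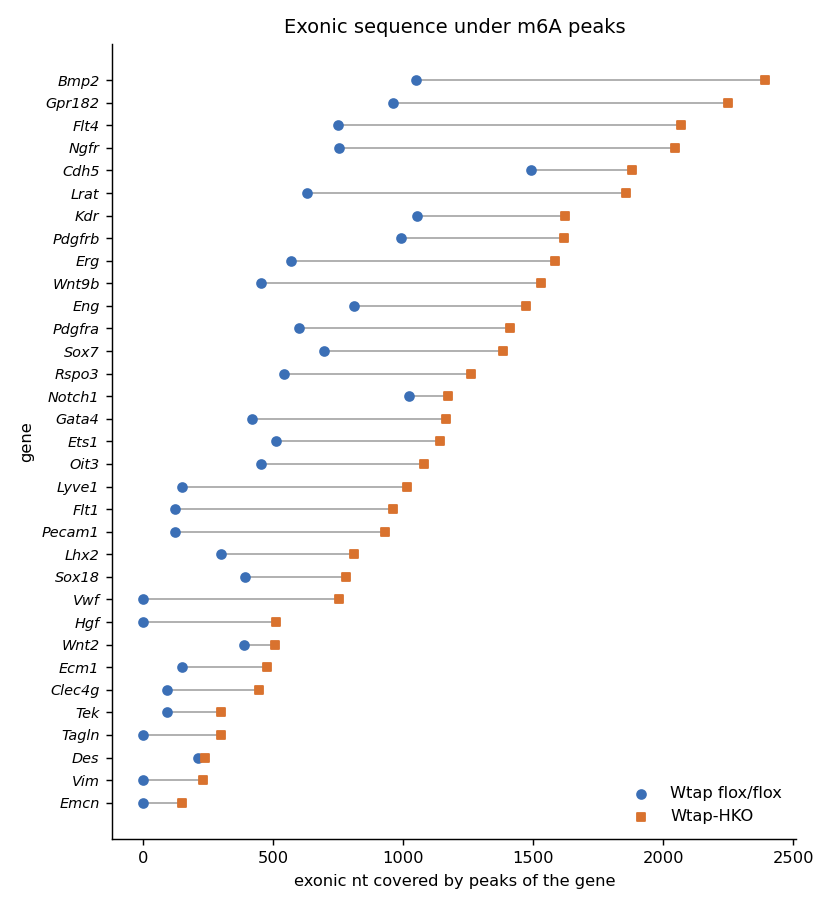
Exonic nt covered by the m6A peaks of each member, overlapping peaks counted once, in *Wtap* flox/flox (circles) and *Wtap*-HKO livers (squares), ordered by the latter. Every square lies to the right of its circle; the 5 circles at 0 are *Emcn*, *Vwf*, *Vim*, *Tagln* and *Hgf*, which had no *Wtap* flox/flox peak.

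The authors' table of peaks that differ between the genotypes (p under 0.01, any fold change) held 7 peaks in 6 members, and each was higher in *Wtap*-HKO livers. The 6 genes were 18.2% of the 33 members with a peak, and the background was 12.6% of 11558 genes. No member had a lower peak, and the background was 16.8%. All 6 members also had a log2 fold change over 1, where the backgrounds were 8.25% for higher and 8.9% for lower peaks. Without a limit on the fold change, the share of higher members (18.2%) lay near the background (12.6%). With the limit it stayed at 18.2%, against 8.25% over all genes. It rests on 6 of 33 genes, and the difference was not tested. The p-values below are the authors' values from the reads of the combined libraries. How far they take the spread between replicates into account is not given in the sources used here.

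Among the endothelial receptors, *Eng* had a listed change. *Eng* (ENSMUSG00000026814) encodes endoglin, a co-receptor for BMP9 and TGF-β. Its differential peak lay at the 3´ end of the gene (chr2:32681440-32682669 of GRCm38), with a log2 fold change of 1.05 and a p of 1.6e-51. *Wtap* flox/flox livers had 2 peaks there, with fold enrichments of 12.9 and 2.87, where *Wtap*-HKO livers had 1 peak of 24.9 that covered both. *Eng* also had a *Wtap*-HKO peak of 6.61 that began 60 nt inside the gene and had no *Wtap* flox/flox counterpart.

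The VEGF receptors had higher maxima in *Wtap*-HKO livers without a listed change. The highest peak of *Kdr*, the main VEGF-A receptor of endothelium, was enriched 20.5 times in *Wtap* flox/flox livers and 51.0 times in *Wtap*-HKO livers. *Flt4*, the receptor for VEGF-C, had maxima of 10.5 and 19.6. *Flt1*, a high-affinity VEGF-A receptor, had a single *Wtap* flox/flox peak of 17.6. The overlapping *Wtap*-HKO peak was lower, at 9.21, while an unshared peak reached 85.8. *Tek*, the angiopoietin receptor, had values of 5.90 and 6.76, and *Gpr182*, an atypical chemokine receptor, had maxima of 9.74 and 14.7. The maxima of *Gpr182* lay in different peaks, and the *Wtap* flox/flox peak of 9.74 overlapped a *Wtap*-HKO peak of 12.6. *Notch1* had 4 peaks in each genotype. The 3 towards its 3´ end were higher in *Wtap*-HKO livers, and the peak at its 5´ end was enriched 33.4 times in *Wtap* flox/flox livers and 6.86 times in *Wtap*-HKO livers, the only member pair with a log2 ratio below -1 (-2.28).

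*Kdr* and *Flt1* each had a *Wtap*-HKO peak over an annotated transcript start at which no *Wtap* flox/flox peak was called, with fold enrichments of 10.2 and 37.9. *Hgf*, the hepatocyte growth factor of stellate cells, had such a peak of 5.12. RefSeq start windows of GRCm38.p6 matched 26 of the 40 members. For 6 members an unshared *Wtap*-HKO peak covered all of the first 50 transcribed bases of such a window, and the other 3 were *Lhx2*, *Clec4g* and *Ngfr*. The letters GGAC occurred on the transcribed strand of these 50 bases in *Kdr*, *Flt1* and *Hgf*, and not in the other 3. Of all 32851 start windows, 18.9% held GGAC on the transcribed strand and 17.4% held it on the other strand. The stretches around GGAC are shown because they lie inside peaks found in *Wtap*-HKO livers only. Capitals mark GGAC, and a match is a description, not a methylated site.
*Kdr* (chr5:75978433-75978455, minus strand, GGAC from base 10): gagtcctcaGGACcccaagagag
*Flt1* (chr5:147725964-147725987, minus strand, GGAC from base 35): gcgcggtggcGGACactcccggga
*Hgf* (chr5:16553928-16553950, plus strand, GGAC from base 38): atgatgtgggGGACcaaacttct

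Among the endothelial transcription factors, *Erg*, *Ets1* and *Gata4* had listed peaks. *Erg* (ENSMUSG00000040732), an ETS factor that maintains endothelial identity, had a differential peak near its 3´ end (chr16:95359707-95361290, log2 fold change 1.40, p of 6.3e-14). *Wtap* flox/flox livers had peaks of 21.5 and 6.43 there, and *Wtap*-HKO livers had 1 peak of 52.4 over both. *Ets1* (ENSMUSG00000032035), another ETS factor, had the largest listed change of the members (chr9:32664696-32696357, log2 fold change 2.05, p of 3.5e-08), where the fold enrichment was 8.49 in *Wtap* flox/flox livers and 40.2 in *Wtap*-HKO livers. Its other shared peak had 10.8 and 25.6. *Gata4* (ENSMUSG00000021944), which specifies sinusoidal endothelium, had a differential peak (chr14:63199250-63199518, log2 fold change 1.20, p of 1.9e-05) that overlapped a *Wtap*-HKO peak of 5.10 and no *Wtap* flox/flox peak. The 2 shared peaks of *Gata4* had 5.46 and 3.85 in *Wtap* flox/flox livers, and 9.59 and 7.88 in *Wtap*-HKO livers. *Sox7* reached the highest value of any member peak, 92.6 in *Wtap*-HKO livers against a maximum of 30.7 in *Wtap* flox/flox livers. *Sox18* had 1 shared peak, of 17.0 and 16.0. Both are SoxF factors of vascular development. No endothelial transcription factor lacked a peak in either genotype.

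Among the signals that endothelial cells send to hepatocytes, *Wnt2* was listed. *Wnt2* (ENSMUSG00000010797), a Wnt ligand of pericentral endothelium, had a differential peak with a log2 fold change of 1.71 and a p of 5.6e-08 (chr6:17989563-18008607). Its fold enrichment was 20.2 in *Wtap* flox/flox livers and 64.3 in *Wtap*-HKO livers. *Wnt9b*, the second of these ligands, had maxima of 37.8 and 49.7, but a lower value in 1 of its 3 pairs. That pair held the *Wtap* flox/flox maximum (37.8 and 28.8, log2 ratio -0.39). *Rspo3*, which amplifies Wnt signals, had maxima of 17.9 and 18.3. *Bmp2*, which sets hepcidin production in hepatocytes, had 3 peaks in each genotype, of 9.98, 34.8 and 3.56 in *Wtap* flox/flox livers and of 20.2, 51.8 and 11.8 in *Wtap*-HKO livers. The maxima of all 4 ligands were higher in *Wtap*-HKO livers, by log2 ratios from 0.03 in *Rspo3* to 1.67 in *Wnt2*.

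The scavenger receptors, the surface proteins and *Oit3* had no listed change. *Lyve1*, a hyaluronan receptor, had maxima of 6.82 in *Wtap* flox/flox livers and 11.4 in *Wtap*-HKO livers. *Clec4g*, a C-type lectin, had 2.68 and 4.90, and *Oit3*, a gene of sinusoidal endothelium, had 16.2 and 24.7. The *Wtap*-HKO maximum of *Clec4g* was an unshared peak, and its shared pair had 2.68 and 3.44. *Pecam1*, the junctional protein CD31, had 1 peak of 6.21 in *Wtap* flox/flox livers (chr11:106688878-106688998). In *Wtap*-HKO livers the overlapping peak was 8.50 (chr11:106688788-106691001), and further peaks of 7.01 and 3.52 were unshared. *Cdh5*, the VE-cadherin gene, had maxima of 20.3 and 23.7.

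Of the 2 endothelial genes with *Wtap*-HKO peaks only, *Emcn*, the sialomucin endomucin, had 1 peak of 25.3 (chr3:137341157-137341306). It began 95 nt inside the gene. *Vwf*, the platelet-binding factor stored in endothelial granules, had peaks of 7.68, 5.65 and 15.7, the first of them 23 nt inside the gene. The log10 false discovery rates of these 4 peaks lay between -30.9 and -3.52, and the peak of 7.68 in *Vwf* had the highest.

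Among the stellate genes, *Lrat* had listed changes. *Lrat* (ENSMUSG00000028003) makes the retinyl esters that stellate cells store. *Wtap* flox/flox livers had peaks of 14.1 and 26.5, and the overlapping *Wtap*-HKO peaks were 47.3 and 42.6. Both differential peaks were higher in *Wtap*-HKO livers, by a log2 fold change of 1.50 (chr3:82896524-82903973, p of 2.5e-18) and of 1.54 (chr3:82895508-82895956, p of 3.8e-07). A further *Wtap*-HKO peak, of 3.28, was unshared.

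The platelet-derived growth factor receptors and *Ngfr* followed the same direction without a listed change. *Pdgfra* had 1 peak of 21.1 in *Wtap* flox/flox livers and a maximum of 47.7 in *Wtap*-HKO livers, and *Pdgfrb*, the receptor that drives stellate cell growth, had maxima of 25.1 and 31.3. *Ngfr*, the low-affinity neurotrophin receptor p75, held 3 peaks in *Wtap* flox/flox livers and 6 in *Wtap*-HKO livers. Its peak nearest the 3´ end showed the largest ratio of all member pairs, with 10.5 and 51.0 (log2 ratio 2.28), and the fold enrichments of its other shared peaks were 12 and 28.1 in *Wtap* flox/flox livers and 23.5 and 30.0 in *Wtap*-HKO livers. *Lhx2*, a factor that holds stellate cells quiescent, had maxima of 12.3 and 20.8, and *Ecm1*, an extracellular matrix protein, had 3.31 and 4.23.

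The cytoskeletal genes of stellate cells had a single pair. *Des*, the intermediate filament desmin, had 1 peak in each genotype, lower in *Wtap*-HKO livers (6.59 and 4.43, log2 ratio -0.57), and it was the only stellate pair with a lower value. *Vim*, vimentin, had 2 overlapping *Wtap*-HKO peaks of 2.37 and 2.27, and *Tagln*, an actin-binding protein of contractile cells, had 1 of 3.24, all unshared and near the low end of the member peaks. *Acta2*, the smooth muscle actin of activated stellate cells, had no peak in the lists used here. *Hgf* had a second unshared peak, of 7.60, toward its 3´ end.

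Member peaks of *Wtap* flox/flox livers lay mostly toward the 3´ end of their genes. The midpoint fell in the last 10% of the RefSeq gene span for 30 of 50 placed peaks (60.0%, all genes 41.9%), and for 35 of 77 *Wtap*-HKO peaks (45.5%, all genes 35.4%). Peaks of *Gpr182* outside its RefSeq span were not placed. In the 85 further endothelial and stellate genes described below, these shares lay near those of all genes. They were 42 of 98 *Wtap* flox/flox peaks (42.9%) and 58 of 168 *Wtap*-HKO peaks (34.5%). No placed *Wtap* flox/flox peak of a member came within 200 nt of the 5´ end by an edge (0 of 50, all genes 10.6%), although those of *Notch1* and *Ecm1* covered an annotated transcript start. In *Wtap*-HKO livers 10 of 77 peaks lay within 200 nt of the 5´ end (13.0%, all genes 18.1%), in *Eng*, *Clec4g*, *Gpr182*, *Emcn*, *Sox18*, *Notch1*, *Rspo3*, *Vwf*, *Lrat* and *Ngfr*. Of the unshared *Wtap*-HKO peaks of the members, 7 of 33 lay there (21.2%, all genes 27.2%). In the further genes, 7 of 98 *Wtap* flox/flox peaks (7.14%) and 34 of 168 *Wtap*-HKO peaks (20.2%) lay within 200 nt of the 5´ end.

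The pairs were also split by the distance of their *Wtap*-HKO peak from the 5´ end, a split chosen after seeing the data. The position of the *Wtap* flox/flox peak was not used. Over all genes, the 1335 pairs whose *Wtap*-HKO peak lay within 200 nt of the 5´ end had a median log2 ratio of 0.83. The other 9164 pairs had a median of -0.10. The members had 3 pairs at the 5´ end, with a median of 0.03. Their 35 other pairs had a median of 0.67, and 30 of these were higher in *Wtap*-HKO livers. The difference from all genes was not tested.

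**Figure D4:**
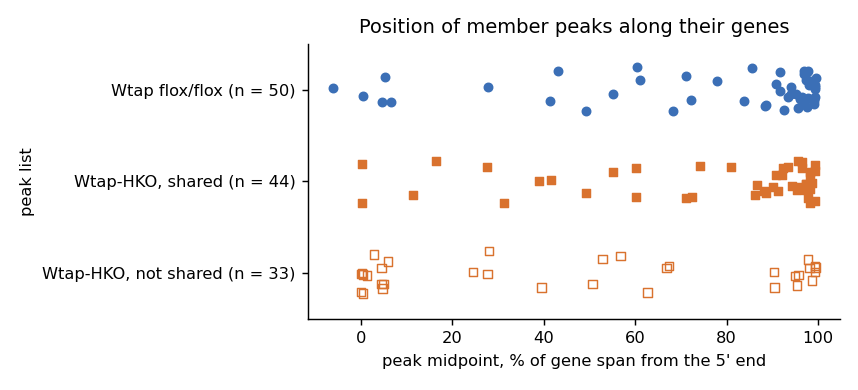
Midpoint of each placed member peak as a percentage of the RefSeq gene span, from the 5´ end at 0 to the 3´ end at 100, by peak list. Points are spread vertically only for legibility; 30 of the 50 *Wtap* flox/flox peaks lie beyond 90%, and the point below 0 is the *Notch1* peak that extends past the start.

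A further 50 endothelial and 35 stellate genes were counted in the same way. Peaks were found for 53 of these 85 genes in *Wtap* flox/flox livers and for 78 in *Wtap*-HKO livers, and none had a peak in *Wtap* flox/flox livers alone. Of their 100 *Wtap* flox/flox peaks, 96 overlapped a *Wtap*-HKO peak (96.0%). Of 73 pairs, 61 were higher in *Wtap*-HKO livers, with a median log2 ratio of 0.81. Higher listed peaks were found in 8 of the 48 endothelial genes with a peak (16.7%) and in 8 of 30 stellate genes (26.7%). The background was 12.6%, so the endothelial share lay near it. With a log2 fold change over 1, these were 7 and 5 genes. A lower listed peak was found in 1 stellate gene (3.33%, all genes 16.8%) and in no endothelial gene. It was *Mylk* (log2 fold change -0.94, p of 2.4e-06), which encodes myosin light chain kinase. The endothelial genes with the smallest p-values were *Ptprb*, the phosphatase VE-PTP (log2 fold change 1.10, p of 6.3e-20), *Maf*, a sinusoidal transcription factor (1.13, p of 2.5e-18), *Gja4*, connexin 37 (1.24, p of 2.0e-17) and the flow-induced factor *Klf2* (1.21, p of 2.0e-17). The stellate genes with the smallest p-values were the chemokine gene *Cxcl12* (0.97, p of 3.2e-52), the collectin gene *Colec11* (0.98, p of 2.5e-49), the transcription factor *Hand2* (1.15, p of 1.6e-22) and the parathyroid hormone receptor *Pth1r* (1.51, p of 1.6e-17).

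Genes of hepatocytes, in which *Wtap* was deleted, had listed peaks in both directions. Of 15 hepatocyte markers with a peak, 7 had a lower (46.7%, all genes 16.8%) and 9 a higher listed peak (60.0%, all genes 12.6%), and some had both. With an absolute log2 fold change over 1, these were 3 and 3 genes. The median log2 ratio of their 17 pairs was 0.10, and 9 of the pairs were higher in *Wtap*-HKO livers. Only 17.6% of the hepatocyte pairs were longer in *Wtap*-HKO livers, against 92.1% of the member pairs. Markers of Kupffer cells and leukocytes, which also keep *Wtap*, had peaks in 7 of 20 genes in *Wtap* flox/flox livers and in 16 in *Wtap*-HKO livers. Of their 10 pairs, 6 had a higher enrichment, with a median log2 ratio of 0.32, and 9 were longer in *Wtap*-HKO livers. They had higher listed peaks in 4 genes and lower ones in none. Cholangiocyte markers had peaks in 4 and 6 of 10 genes and a median log2 ratio of -0.15 over 4 pairs. They had a lower listed peak in 1 of the 6 genes with a peak (16.7%). None of these differences between lists was tested.

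**Figure D5:**
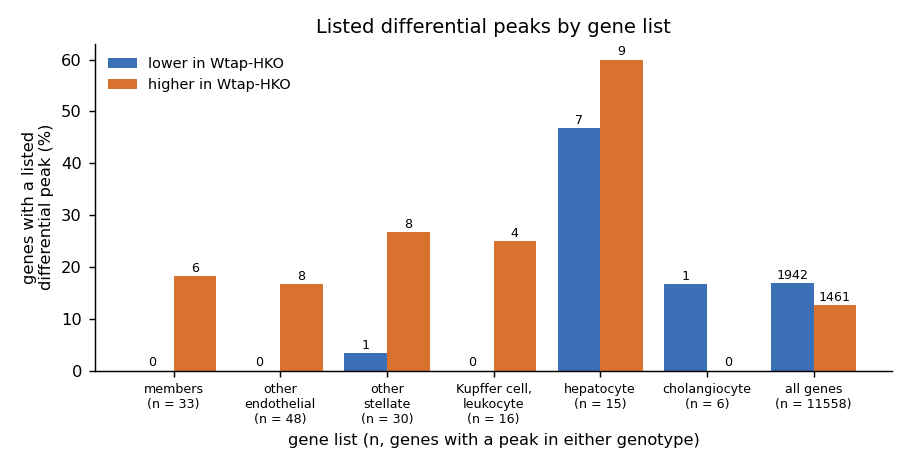
Percentage of genes with a listed differential peak that was lower or higher in *Wtap*-HKO livers by gene list, out of the genes that had any peak. Numbers above the bars are genes; no member had a lower peak, whereas 16.8% of all genes did, and the 6 members with a higher peak were 18.2% against 12.6% of all genes.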

How the data were processed

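m6ARIP-seq was measured in whole liver of both genotypes. Per the submitters' processing notes, reads were trimmed with fastp 0.19.11 and aligned with BWA 0.7.12, and HOMER 4.9.1 was also used. The authors called peaks on GRCm38 with exomePeak and deposited 3 lists with the replicates combined: peaks of each genotype, and peaks that differ. The fold enrichment that the authors deposited is a linear ratio, IP to input. The authors deposited false discovery rates and p-values as log10 scores. The deposited difference is a log2 fold change of *Wtap*-HKO over *Wtap* flox/flox, which is the authors' own comparison and is printed as such. Depth is unknown.

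Peaks were taken by gene symbol and compared by shared exonic bases on the same strand with Python 3.11.15, pandas 2.3.3, numpy 2.4.6 and scipy 1.17.1 (Wilson intervals); figures used matplotlib 3.10.9. Starts are printed 1-based. Positions used RefSeq gene spans of GRCm38.p6, which include introns. The overlap computation was tested on simulated data. The members and the gene lists were chosen with earlier results of these data known. All 40 members are accounted for. Members with a listed differential peak or with peaks in 1 genotype, *Stab2*, *Pecam1* and *Lrat* were to be given per peak, and of the further genes the 4 smallest p-values per direction chose those named, separately for endothelial and stellate genes. The values of other members were added after they were seen. Alternatives were other limits on peaks, overlap and fold change.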

Additional observations from a re-analysis of the deposited data

How the results depend on the processing

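No paired analysis was possible because the deposited lists combine the replicates, and no replicate could be left out for the same reason. Of 27 alternatives, 23 gave the same result and none reversed a direction. Some of them could not change a member result. A fold enrichment of at least 2 and a false discovery rate under 0.01 left out no member peak. All listed member peaks already had an absolute log2 fold change over 1. When 50% of the exonic bases of a peak had to be shared, the share of *Wtap*-HKO member peaks that were shared was 34.2%, and that of *Wtap* flox/flox member peaks was 98.1%. The shares over all genes were not at hand for this limit. The median log2 ratio of the member pairs was 0.74 over 26 pairs when 50% of both peaks had to be shared, and 0.75 over all 52 overlapping pairs. With an absolute log2 fold change over 1, the further endothelial and stellate genes with a lower listed peak numbered 0 in place of 1, and those with a higher one 12 in place of 16. Leaving out pairs near the 5´ end was chosen after seeing the data. The depth is unknown, and its part in the number of member peaks called in each genotype was not tested.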
